A study of Mus musculus with 16 samples.

Results

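Neutrophils from the lung were compared with neutrophils from the spleen in specific pathogen free (SPF) mice. The comparison uses 6 of the 16 libraries of the series: 3 from SPF lung (replicates 1, 2 and 3) and 3 from SPF spleen (replicates 1, 2 and 4), chosen by their labels. All mice were of the C57BL/6 strain, with no allele, agent or age given, and the cells were sorted by flow cytometry on CD45, CD11b, Ly6G and a DAPI stain. In the other libraries the same cells came from germ-free (GF) mice, which carry no microorganisms, and from blood. The 3 GF lung and 3 GF spleen libraries serve here only to ask whether the difference between the tissues is another in SPF mice. Each label names 1 mouse as the source but does not say whether libraries share a mouse. The p-values therefore rest on the variation among libraries, part of which may be technical.

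Neutrophils are short-lived phagocytes that leave the bone marrow with most of their granule proteins already made. The genes of secondary granules, such as those for lactoferrin and the cathelicidin, are transcribed in maturing precursors and are then shut down. Mature cells can still transcribe inflammatory genes: NF-kB, held in the cytoplasm by its inhibitors, enters the nucleus after a stimulus and drives chemokines, cytokines and the genes of its own inhibitors. Immediate early genes, whose transcripts appear within minutes and decay fast, respond to many signals, with the handling of tissue and cells among them.

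Levels are normalised counts, the deposited values less their offset of 0.5 reads, and they allow a gene to be compared between libraries, not genes with each other. A gene was called when limma's adjusted p was under 0.05, and a log2 difference is lung minus spleen on the scale of log2(value + 1), which understates the change of low genes. The lung libraries held 504208 to 909676 recovered reads and the spleen libraries 104213 to 640596. In the spleen 1 read was worth 1.49 to 7.62 normalised counts, against 1.04 to 1.97 in the lung, and 12.2% to 36.9% of the listed genes had 0 reads in a spleen library, against 3.78% to 9.80% in a lung library. Where all 3 spleen libraries had 0 reads, the fold is a bound set by a floor of 3 reads over the pooled group (2.95 normalised counts), which covers counting error only.

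The libraries carried the transcripts of neutrophils. The level of Csf3r, the receptor of the growth factor G-CSF, was 7982, 8683 and 6694 in the lung libraries and 10000, 8841 and 7721 in the spleen libraries, which overlapped (log2 difference -0.19, adjusted p = 0.564). Of the 10 neutrophil markers tested, Il1r2 was called higher and Cxcr2, Ly6g and Mmp9 lower in the lung, and the count called lower was 1 or 0 when any 1 library was left out. Ly6g, which encodes the antigen of the sort, was at 43.4, 51.3 and 41.6 in the lung and 114, 137 and 174 in the spleen. Its difference of -1.61 (SE 0.49, adjusted p = 0.0445) lost its call when any 1 of the 6 libraries was left out, with adjusted p between 0.0693 and 0.145.

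Transcripts of lung structural cells set the lung libraries apart. Of 11 markers of endothelium and stroma, all 11 were called higher in the lung, with a median log2 difference of 4.83, beside 7.68% of all genes tested that were called higher. Without Pecam1, which neutrophils express too and which was set aside after the values were seen, the summed level of these markers was 954 to 1511 in the lung libraries and 0 to 4.47 in the spleen libraries. Cldn5, a tight junction protein of endothelium, and 6 others (Col1a2, Col4a1, Dcn, Kdr, Mgp and Ramp2) had 0 reads in every spleen library. The epithelial gene Sftpc, a surfactant protein, stood at 1714, 2113 and 3178 in the lung and at 7.62, 2.98 and 4.70 in the spleen, a log2 difference of 8.18 (SE 0.68, adjusted p = 2.85e-06). Of 11 epithelial markers 8 were called higher and 1 lower, 5 of the 8 holding their call at equal depth, and without Lyz2, which neutrophils make and which was also set aside after the values were seen, their sum was 2915 to 5715 in the lung and 160 to 240 in the spleen.

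Markers of blood and immune cells other than neutrophils were called in part. Of 5 markers of eosinophils, basophils and mast cells 3 were called. Cpa3, Epx, Fcer1a, Mcpt8, Ms4a2 and Prg2, the rest of that list, were not among the genes with values. Gata2, a transcription factor of mast cells and basophils that endothelium also expresses, was at 19.7, 30.3 and 24.99 in the lung and at 0 in the spleen, at least 8.46-fold higher (adjusted p = 0.000194). Kit, the receptor of stem cell factor, was at 21.7, 33.8 and 27.1 against 0, 2.98 and 0 (2.77, SE 0.62, adjusted p = 0.00240) and was not called at equal depth (adjusted p = 0.136). Ccr3, the eotaxin receptor, was lower in the lung, at 3.94, 4.66 and 2.08 against 7.62, 14.9 and 32.9 (-1.94, adjusted p = 0.0242). The call of Ccr3 was lost without lung replicate 3 (adjusted p = 0.135) or spleen replicate 4 (adjusted p = 0.158) and at equal depth (-1.03, adjusted p = 0.558). It was also lost with the offset subtracted, with a replicate block and with the 6 libraries alone. Without Hdc, which neutrophils express and which was set aside after the values were seen, the summed level of this list was 119.7 to 141 in the lung and 90.9 to 103 in the spleen. Of 9 macrophage and monocyte markers Ly6c2, an antigen of inflammatory monocytes, was lower in the lung, at 71.0, 82.9 and 76.1 against 114, 225 and 254 (-1.29, SE 0.29, adjusted p = 0.00216), and the others were not called. Which cells the Ly6c2 transcripts came from was not tested. The summed level of B cell markers was 577 to 767 in the lung and 607 to 809 in the spleen, and the 3 of 12 that were called higher (Cd79a, Cd79b and Igkc) were 0 without lung replicate 1 or 3 or spleen replicate 4. Of 6 markers of splenic red pulp macrophages, Slc40a1 and Hmox1 were called lower in the lung, while 4 had a positive difference (list median 0.13). The call of Slc40a1 was lost without lung replicate 3 (adjusted p = 0.0671) and with neither trend nor robust prior (adjusted p = 0.125). That of Hmox1 was lost without lung replicate 1 (adjusted p = 0.0661) and at equal depth (-0.59, adjusted p = 0.467). Without Slc40a1 and Treml4, which were set aside after the values were seen, the summed level of the others was 112 to 156 in the lung and 221 to 237 in the spleen. Most of that sum was Hmox1, at 72.5, 90.9 and 96.8 in the lung and 198, 147 and 160 in the spleen. Haemoglobin and other erythroid transcripts summed to 424 to 1796 in the lung and to 56.4 to 107 in the spleen, and of the 6 tested only Car2 was called, a call that was lost without lung replicate 2 or 3 or spleen replicate 2 or 4, while a fit of these 6 libraries alone called 5. No T and NK cell, dendritic cell or platelet marker was called, of 3, 1 and 8 tested. In these bulk libraries, fewer cells of a type and less RNA per cell cannot be told apart. The part of the structural and erythroid transcripts, and of any from mast cells or basophils, in the results that follow was not tested.

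Of the 8299 genes tested, 802 were called between SPF lung and SPF spleen (9.66%). In the lung 637 were higher (7.68%) and 165 lower (1.99%). The median over all genes tested was 0.06. The libraries of the 2 tissues did not overlap in 25.3% of the genes tested. A difference of at least 2 on the log2 scale was found for 402 of the genes called higher and for 42 of those called lower. In 152 of the 637 genes called higher all 3 spleen libraries had 0 reads, while this held for the lung in 2 of the 165 called lower. Thinned to the depth of the shallowest library, the reads gave 434 calls, 367 higher and 67 lower. Under quantile rescaling, which lowered the median of all genes by 0.19 to -0.12, 579 genes were higher and 376 lower, so that 60.6% of calls were higher in place of 79.4%.

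**Figure D1:**
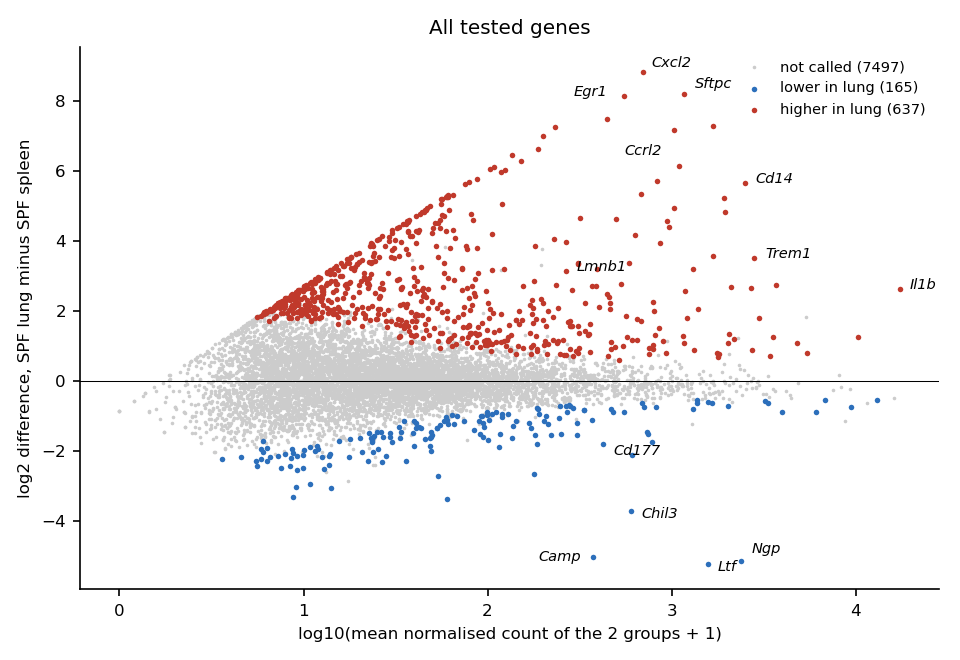
Each point is 1 of the 8299 genes tested: the horizontal axis is the log10 of the mean normalised count of SPF lung and SPF spleen plus 1, the vertical axis the log2 difference of SPF lung minus SPF spleen. The 637 genes called higher in lung are red, the 165 called lower blue and the others grey; the straight upper edge on the left is formed by genes with few or no reads in the spleen.

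The chemokine that differed most was Cxcl2, a ligand of the neutrophil receptor CXCR2. Its level was 1553, 1532 and 1109 in the lung libraries and 0 in each of the 3 spleen libraries. The groups stood wholly apart, at least 473-fold, with a log2 difference of 8.83 (SE 0.45, adjusted p = 1.01e-14). Of the 8 chemokine ligands tested 4 were called higher and none lower, with a median of 2.32 beside 0.06 over all genes tested. Cxcl3, a close relative of Cxcl2, was at 67.0, 78.1 and 56.3 in the lung and at 0 in the spleen, at least 22.7-fold higher. Ccl4, an inflammatory chemokine, was at 169, 76.9 and 76.0 against 0, 2.98 and 0, with lung replicate 1 the highest library (log2 difference 4.58, SE 0.61, adjusted p = 1.48e-06). Ccl3, a related ligand, was at 59.1, 18.6 and 20.8 against 0, 2.98 and 0 (2.83, SE 0.62, adjusted p = 0.00201). Ccl6, a ligand of CCR1, was at 5791, 4422 and 4119 in the lung and at 4977, 4753 and 5167 in the spleen, and these values overlapped (-0.07, adjusted p = 0.874).

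Of 13 genes for cytokines and their antagonists, 7 were called higher and 1 lower in the lung, with a median of 2.05. Il1b, the inflammatory cytokine interleukin 1 beta, was at 30451, 30672 and 27488 in the lung and at 2817, 6318 and 6282 in the spleen. It was thus present in all 6 libraries, and its mean was 5.75-fold higher in the lung (log2 difference 2.61, SE 0.25, adjusted p = 1.48e-06). Il1a, which signals through the same receptor, was at 104, 111 and 115 in the lung and at 0 in the spleen, at least 37.2-fold higher. Il1r2, the decoy receptor that binds interleukin 1 without signalling, was at 2984, 3576 and 4268 against 427, 517 and 785 (2.67, SE 0.24, adjusted p = 1.36e-08). The antagonist Il1rn was at 1125, 1377 and 1316 against 915, 792 and 1030, which did not pass the test (0.48, adjusted p = 0.113). Tnf was at 90.1, 79.2 and 115 in the lung and at 7.62, 1.49 and 0 in the spleen (4.22, SE 0.55, adjusted p = 1.37e-06). Csf1, the growth factor of macrophages, was at 564, 805 and 869 against 175, 164 and 183 (2.05, SE 0.24, adjusted p = 2.16e-07). Tnfsf14, the TNF family ligand LIGHT, was the member that fell, from 267, 302 and 296 in the spleen to 96.6, 69.9 and 82.3 in the lung (-1.80, SE 0.21, adjusted p = 2.70e-07).

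**Figure D2:**
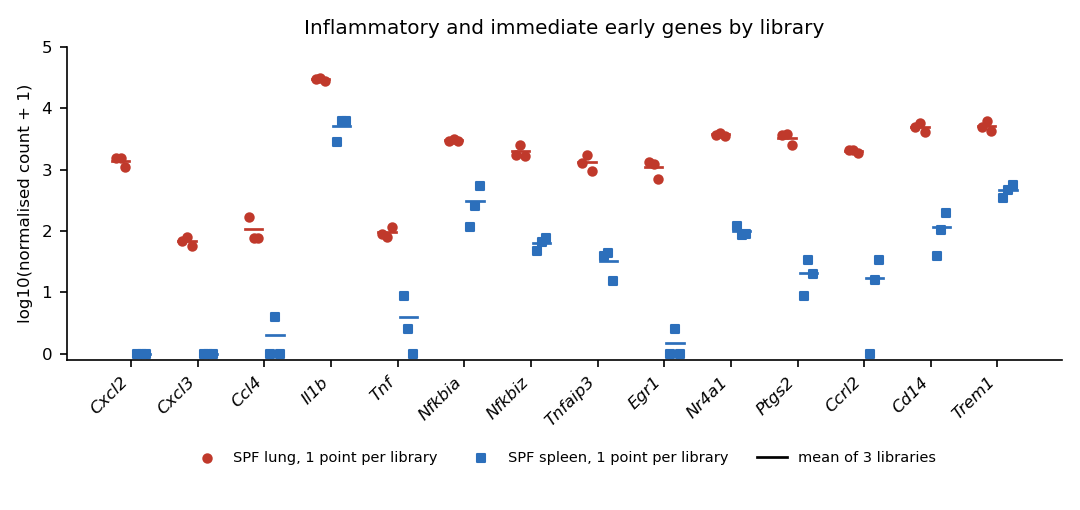
The level of 14 inflammatory and immediate early genes in each library, as log10(normalised count + 1), with SPF lung as red circles, SPF spleen as blue squares and the mean of 3 libraries as a line. For each gene the 3 lung libraries lie above the 3 spleen libraries, from Il1b, with a mean of 29537 against 5139, to Cxcl2 and Cxcl3, which had 0 reads in the spleen.

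Between the feedback inhibitors and the subunits of NF-kB, calls fell mostly on the inhibitors. Of 10 feedback inhibitors 7 were called higher and none lower, with a median of 2.62; at equal depth 4 were called. Nfkbiz, a nuclear inhibitor-like cofactor, was at 1734, 2548 and 1700 in the lung and at 45.7, 64.0 and 75.2 in the spleen, and its difference of 4.94 (SE 0.26, adjusted p = 1.01e-14) was 32.3-fold in the means. Tnfaip3, which encodes the ubiquitin-editing enzyme A20, was at 1263, 1755 and 965 against 38.1, 43.2 and 14.1 (5.32, SE 0.33, adjusted p = 6.00e-13). Nfkbia, the classical cytoplasmic inhibitor, was at 2911, 3210 and 2988 against 114, 258 and 536 (3.57, SE 0.45, adjusted p = 0.000199). The spread of Nfkbia was wider in the spleen than in the lung, and the groups did not overlap. Nfkbid rose too (4.16, SE 0.28, adjusted p = 6.29e-12). Of the 5 subunits only Rel was called, at 76.9, 60.6 and 65.6 against 38.1, 19.4 and 9.40 (1.61, SE 0.41, adjusted p = 0.00758), a call lost without spleen replicate 4 (adjusted p = 0.0738) and at equal depth. Rela, the main activating subunit, was at 144, 209 and 164 in the lung and 168, 167 and 221 in the spleen (-0.12, adjusted p = 0.831).

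Of 13 survival and adhesion genes known as NF-kB targets 8 were called higher and none lower, with a median of 1.65. Traf1, an adaptor of TNF receptors, was at 47.3, 44.3 and 42.7 in the lung and at 0 in the spleen, at least 15.1-fold higher. Sod2, the mitochondrial superoxide dismutase, was at 86.7, 83.9 and 101 against 7.62, 28.3 and 18.8 (2.18, SE 0.35, adjusted p = 3.81e-05). Icam1, a ligand of beta-2 integrins, was at 130, 146 and 198 against 45.7, 35.7 and 47.0 (1.78, SE 0.30, adjusted p = 7.10e-05). For Bcl2a1b, a survival gene with near-identical copies that can share reads, the values were 75.4, 107 and 121 against 0, 9.16 and 28.2.

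The promoters of several of these genes hold the kappaB motif, the DNA element that NF-kB subunits bind. It was searched on both strands from 250 bases before to 50 bases after each start listed by RefSeq (GRCm38.p6), as 1 of 5 motifs. The motif stands in 5.80% of the 32851 promoters of the table. A gene was counted when any of its listed starts had a match, and the share over all 27025 genes was 6.55%. By gene, it was found in 62 of the 459 genes called higher that matched a promoter by symbol (13.5%), in 6 of the 124 called lower (4.84%) and in 485 of the 5767 not called (8.41%). Of 9 matched feedback inhibitors 6 held it (Bcl3, Cyld, Nfkbia, Nfkbid, Tnfaip3 and Tnip1), and Nfkbib, Nfkbie and Zc3h12a did not. Among 6 matched chemokine ligands it was in Ccl9, Cxcl10, Cxcl2 and Cxcl3 but not in Ccl3 or Ccl6. Bcl3, Cyld, Tnip1, Ccl9 and Cxcl10 were not called, so a match went with a call in some members only. Of the other lists searched, 3 of 12 survival and adhesion targets held one (Bcl10, Gbp5 and Sod2, but not Traf1, Icam1 or Bcl2a1b), as did 5 of 17 immediate early factors, 0 of 17 feedback and mRNA decay genes and 2 of 9 secondary granule genes (Olfm4 and Pglyrp1). The windows below, from genes that rose and hold a match before the start, show the motif in capitals with up to 25 bases on each side; both the motif and these genes were picked after the matches had been seen.
Cxcl2 (chr5:90903777-90903836, plus strand): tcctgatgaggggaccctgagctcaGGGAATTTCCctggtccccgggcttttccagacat
Cxcl3 (chr5:90786003-90786062, plus strand): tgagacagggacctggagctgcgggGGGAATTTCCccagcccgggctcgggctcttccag
Nfkbia (chr12:55492648-55492701, minus strand): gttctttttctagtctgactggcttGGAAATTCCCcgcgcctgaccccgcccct
Tnfaip3 (chr10:19015411-19015447, minus strand): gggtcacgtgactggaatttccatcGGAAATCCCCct
Ccrl2 (chr9:111057540-111057599, minus strand): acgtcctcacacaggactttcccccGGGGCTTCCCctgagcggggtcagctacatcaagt
Sod2 (chr17:13007731-13007790, plus strand): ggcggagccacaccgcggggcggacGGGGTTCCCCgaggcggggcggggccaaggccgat
Cxcl2 and Cxcl3, which had 0 reads in the spleen, carry the same 10 letters, and in Nfkbia and Tnfaip3 the motif reads on the strand opposite to the gene. A match in such a window is a stretch of letters and not a measured binding site.

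The other motifs searched were TTGCNNAA, bound by C/EBP factors, TGACGTCA (the CRE), bound by CREB and ATF factors, TGANTCA, bound by AP-1, and the CArG element of serum response factor. They stood in 10.8%, 1.79%, 7.81% and 1.63% of all promoters. Counted by gene, with a match at any listed start, the shares were 12.2%, 2.03%, 8.97% and 1.81% of all genes. In the genes called higher the shares were 8.71%, 5.66%, 10.7% and 3.05%, in those called lower 17.7%, 1.61%, 12.9% and 1.61%, and in those not called 9.87%, 3.75%, 5.88% and 1.58%. The AP-1 motif was thus found at a larger share in both called groups than in the genes not called. Matches of different motifs overlapped in at most 7 promoters for any pair, that of C/EBP and AP-1.

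Immediate early genes were higher in the lung, though not all of them. Of 20 immediate early transcription factors 11 were called higher and none lower, with a median of 1.96. Egr1, a zinc finger factor induced by growth and stress signals, was at 1358, 1239 and 704 in the lung, while in the spleen it had 1 read in replicate 2, a level of 1.49, and none in the others. The log2 difference was 8.15 (SE 0.55, adjusted p = 1.49e-10). Nr4a1, an orphan nuclear receptor, was at 3734, 3988 and 3534 against 122, 86.4 and 89.3 (5.21, SE 0.33, adjusted p = 4.41e-10), with little spread in either tissue. Csrnp1, a cysteine- and serine-rich nuclear protein, was at 920, 995 and 953 against 22.9, 44.7 and 42.3 (4.62, SE 0.36, adjusted p = 1.01e-09). Junb, a subunit of AP-1, was at 5483, 4444 and 4016 against 1151, 1647 and 1265 (1.78, SE 0.20, adjusted p = 1.56e-07). Its partner Fos was at 5226, 4660 and 3578 against 229, 1609 and 950 (2.64, SE 0.56, adjusted p = 0.0112), a call that was lost when only these 6 libraries were fitted (adjusted p = 0.15) and with a replicate block (adjusted p = 0.0982). Klf2, a factor of quiescence and trafficking, was at 33.5, 37.3 and 62.5 against 22.9, 110 and 151, and these overlapped (-0.81, adjusted p = 0.537).

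Of 19 genes for feedback on signalling and for mRNA decay, 10 were called higher and 1 lower, with a median of 1.80. Ppp1r15a, which restores translation after stress, was at 1374, 2062 and 1440 in the lung and at 7.62, 26.8 and 79.9 in the spleen (5.69, SE 0.45, adjusted p = 1.33e-07). Btg2, an antiproliferative factor that promotes deadenylation, was at 7212, 7105 and 4819 against 610, 1153 and 1176 (2.74, SE 0.24, adjusted p = 1.77e-08). Zfp36, the protein tristetraprolin that destabilises cytokine mRNAs, was at 2426, 2233 and 2059 against 595, 552 and 484 (2.04, SE 0.18, adjusted p = 8.31e-10). Dusp1, a phosphatase of MAP kinases, had no overlap between the tissues, at 8406, 9438 and 5559 against 579, 4086 and 4096, and did not pass (1.83, SE 0.79, adjusted p = 0.216). Spleen replicate 1, the shallowest library, lay well below the other 2 spleen libraries in Dusp1, Fos, Btg2, Ppp1r15a and Il1b. The one member called lower was Sgk1, a kinase induced by glucocorticoids, at 90.7, 103 and 141 against 274, 381 and 324 (-1.56, SE 0.26, adjusted p = 5.82e-05).

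Sensors of microbial products and danger signals were higher in part. Of 22 pattern recognition genes 6 were called higher and none lower, with a median of 0.11. Trem1, a receptor that amplifies inflammatory signals, was at 4934, 6268 and 4343 in the lung and at 351, 466 and 564 in the spleen (3.49, SE 0.19, adjusted p = 1.93e-14). Cd14, the lipopolysaccharide coreceptor, was at 4921, 5680 and 4140 against 38.1, 104 and 198 (5.65, SE 0.49, adjusted p = 9.22e-06). Tlr2, which senses bacterial lipoproteins, was at 666, 595 and 1034 against 91.5, 188 and 150 (2.40, SE 0.25, adjusted p = 2.53e-08). Clec4e, the lectin Mincle, was at 1541, 2334 and 1782 against 396, 524 and 734 (1.79, SE 0.22, adjusted p = 5.34e-07). Tlr4, the receptor with which CD14 works, was at 94.6, 90.9 and 72.9 against 83.8, 98.3 and 122, and these values overlapped (-0.25, adjusted p = 0.690).

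Among 18 trafficking and chemoattractant receptors 5 were called higher and 2 lower, with a median of 0.07. Pecam1 is 1 of the 5 and was also counted above among the markers of endothelium and stroma. Ccrl2, an atypical receptor that presents the chemoattractant chemerin, was at 2115, 2127 and 1894 in the lung and at 0, 14.9 and 32.9 in the spleen (7.16, SE 0.57, adjusted p = 1.82e-06). Cxcr4, the receptor that retains neutrophils in the marrow and returns aged ones to it, was at 199, 221 and 282 against 45.7, 98.3 and 65.9 (1.73, SE 0.29, adjusted p = 6.92e-05), with adjusted p = 0.0527 at equal depth. Cxcr2, the receptor of the ligands Cxcl2 and Cxcl3, was at 2250, 3049 and 2568 against 3437, 4467 and 4398, 1.56-fold lower in the lung (-0.65, SE 0.17, adjusted p = 0.0106). That call was lost without lung replicate 1, spleen replicate 2 or spleen replicate 4, with adjusted p between 0.0509 and 0.0807.

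Genes of lipid mediators, vessel growth and metabolism differed one by one. Ptgs2, the inducible cyclooxygenase of prostaglandin synthesis, was at 3641, 3829 and 2489 in the lung and at 7.62, 32.8 and 18.8 in the spleen, 168-fold in the means (7.27, SE 0.86, adjusted p = 0.000189). Hpgd, which degrades prostaglandins, was at 138, 147 and 149 against 7.62, 5.96 and 9.40 (3.77, SE 0.50, adjusted p = 1.39e-06). Of the 14 eicosanoid genes 3 were called higher and 2 lower, the third higher one being Ptges, at 9.85, 8.16 and 9.37 against 0 reads in the spleen, a call lost without any 1 library other than spleen replicate 1 (adjusted p from 0.0675 to 0.172). The lower ones were Ptger2, a prostaglandin receptor, and Lta4h, of leukotriene synthesis; neither was called at equal depth, and only 1 of them was called without any 1 of the libraries other than spleen replicate 1. Alox5ap, the partner of 5-lipoxygenase, overlapped between the tissues, at 915, 742 and 786 against 686, 1077 and 1072.

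Of 13 genes of angiogenesis and hypoxia 6 were called higher and none lower, with a median of 0.88. Thbs1, the matrix protein thrombospondin 1, was at 1415, 3515 and 1575 in the lung and at 45.7, 23.8 and 14.1 in the spleen (6.14, SE 0.47, adjusted p = 7.43e-07). Vegfa, the vascular growth factor, was at 70.9, 78.1 and 90.6 against 7.62, 4.47 and 4.70 (3.25, SE 0.47, adjusted p = 5.93e-06). Nrp1, a coreceptor of that factor which endothelium expresses strongly, was at 71.2, 76.9 and 66.3 against 0, 1.49 and 0. Plaur, the receptor of urokinase, was at 1671, 2441 and 1945 against 206, 407 and 442 (2.57, SE 0.24, adjusted p = 6.24e-09). Of 19 glycolysis genes 3 were called (15.8%), beside 9.66% of all genes tested. Slc16a3, a lactate exporter, was at 1800, 2574 and 2672 against 274, 216 and 268 (3.18, SE 0.22, adjusted p = 8.89e-12). The glucose transporter Slc2a1 was higher by 1.08, and the regulator Pfkfb4 was lower by 0.89 on the log2 scale (log2 difference -0.89). Slc2a1 lost its call at equal depth (adjusted p = 0.0740) and Pfkfb4 without lung replicate 3 (adjusted p = 0.0513).

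Secondary granule genes were lower in the lung. All 10 tested members had a negative difference and 6 were called lower, beside 1.99% of all genes tested, with a median of -1.59. Ltf, the iron-binding protein lactoferrin, was at 177, 101 and 26.0 in the lung and at 2752, 3183 and 3168 in the spleen. The spleen libraries lay close together and the lung libraries spread widely, with replicate 3 the lowest, and the mean was 29.9-fold higher in the spleen (log2 difference -5.25, SE 0.93, adjusted p = 0.00395). Ngp, a neutrophilic granule protein, was at 242, 192 and 40.6 against 3156, 5211 and 5474 (-5.15, SE 0.82, adjusted p = 0.00202). Camp, the cathelicidin antimicrobial peptide, was at 33.5, 17.5 and 11.5 against 373, 929 and 870 (-5.03, SE 0.83, adjusted p = 0.00212). In all 3 of these genes lung replicate 1 was the highest lung library and replicate 3 the lowest.

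Chil3, a chitinase-like protein with close relatives that can share reads, was at 78.8, 81.6 and 84.3 in the lung and at 899, 1436 and 1039 in the spleen (-3.73, SE 0.42, adjusted p = 1.50e-05). Cd177, a surface protein stored in these granules, was at 238, 189 and 141 against 610, 718 and 644 (-1.82, SE 0.22, adjusted p = 4.75e-07). Other members differed by less. Lcn2, the iron-scavenging lipocalin, was at 802, 711 and 745 against 1250, 2213 and 2055 and did not pass (-1.25, SE 0.39, adjusted p = 0.0695). Mmp8, the neutrophil collagenase, was at 1332, 1349 and 1206 against 1936, 2294 and 1876 (-0.65, SE 0.19, adjusted p = 0.0239), a call lost without any of the 3 lung libraries or without spleen replicate 2, with adjusted p between 0.0507 and 0.130. Olfm4, Pglyrp1 and Hp were not called. With array weights, or under quantile rescaling, all 10 were called lower.

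The promoters of Ltf, Ngp, Lcn2 and Mmp8, 4 of 9 matched members of this list, hold the motif TTGCNNAA of the C/EBP factors, which drive granule genes in maturing neutrophils. Those of Camp, Cd177, Chil3, Olfm4 and Pglyrp1 do not. Of the 124 matched genes called lower in the lung 22 held it (17.7%), beside 9.87% of those not called. The windows show the motif in capitals, with up to 25 bases before and after it; these genes too were chosen after their matches had been seen.
Ltf (chr9:111019192-111019249, plus strand): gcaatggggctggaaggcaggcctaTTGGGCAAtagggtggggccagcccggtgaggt
Ngp, first match (chr9:110419645-110419702, plus strand): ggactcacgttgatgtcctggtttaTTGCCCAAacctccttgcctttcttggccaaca
Ngp, second match (chr9:110419772-110419807, plus strand): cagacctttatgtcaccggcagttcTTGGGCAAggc
Lcn2 (chr2:32387923-32387980, minus strand): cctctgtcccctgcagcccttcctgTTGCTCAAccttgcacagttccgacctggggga
Mmp8 (chr9:7558385-7558428, plus strand): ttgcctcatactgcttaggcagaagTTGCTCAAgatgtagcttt
In Ltf and in the second match of Ngp the motif reads on the opposite strand. Ltf and Ngp, with the largest differences, and Mmp8, with a small one, all hold a match.

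**Figure D3:**
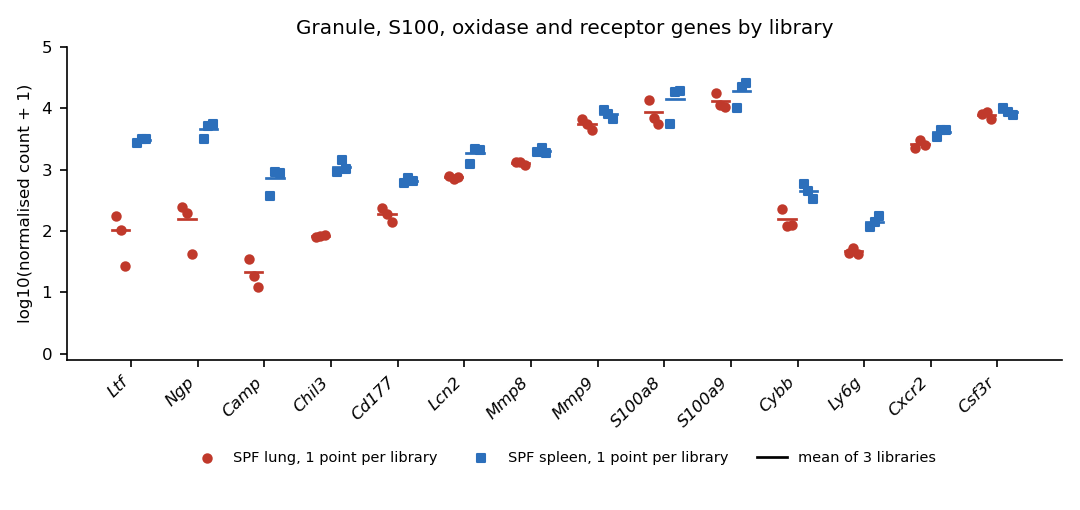
The level of 14 granule, S100, oxidase and receptor genes in each library, as log10(normalised count + 1), with SPF lung as red circles, SPF spleen as blue squares and the mean of 3 libraries as a line. Ltf, Ngp, Camp and Chil3 separate by more than a log10 unit, the lung libraries of Ltf spread from 26.0 to 177, and S100a8, S100a9 and Csf3r overlap.

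Of 11 genes of gelatinase granules and S100 proteins, only Mmp9 was called, at 6698, 5503 and 4412 in the lung and at 9299, 8134 and 6734 in the spleen. Its adjusted p was 0.0498, and the call was lost without lung replicate 2 or 3 or spleen replicate 1 or 2 and in 6 of the other settings. S100a8, a subunit of the calcium-binding calprotectin, was at 13479, 6921 and 5550 against 5618, 18672 and 18862, and S100a9, the other subunit, at 17841, 11159 and 10322 against 10054, 22324 and 25456. Neither was called (adjusted p = 0.606 and 0.651), and in both spleen replicate 1 lay far below the other spleen libraries. Of 7 oxidase genes, Cybb, the catalytic subunit of the phagocyte NADPH oxidase, was lower in the lung, at 227, 120 and 126 against 587, 447 and 334 (-1.55, SE 0.28, adjusted p = 0.000152). Rac2, the GTPase of that complex, was at 2739, 2491 and 2479 against 3334, 3960 and 4373 (-0.59, SE 0.16, adjusted p = 0.0166) and lost its call without lung replicate 2 or 3 or spleen replicate 2 or 4 (adjusted p between 0.0608 and 0.0912). None of the 11 Fc and complement receptor genes was called.

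Other genes lower in the lung were not members of a granule list. Cdh23, an adhesion protein of the cadherin family, was at 1.97, 23.3 and 9.37 in the lung and at 137, 112 and 70.5 in the spleen (-3.37, SE 0.47, adjusted p = 7.17e-06). Itgb2l, a beta-2-like integrin subunit, was at 17.7, 11.7 and 10.4 against 83.8, 86.4 and 108 (-2.71, SE 0.38, adjusted p = 3.53e-06). Tnfaip8l2, a negative regulator of immune signalling, was at 39.4, 52.4 and 48.9 against 282, 276 and 362 (-2.67, SE 0.25, adjusted p = 2.01e-09). Gpr146, a G protein coupled receptor, was at 53.2, 39.6 and 48.9 against 213, 203 and 128 (-1.89, SE 0.30, adjusted p = 2.99e-05). Ctsd, the lysosomal protease cathepsin D, was at 3098, 2739 and 2540 against 5643, 5037 and 4852 (-0.89, SE 0.15, adjusted p = 7.77e-05), while Ctsl, cathepsin L, was higher, at 156, 92.1 and 147 against 7.62, 16.4 and 9.40 (3.19, SE 0.38, adjusted p = 2.84e-07).

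MHC class I presentation and glucocorticoid response held calls in both directions, while interferon-stimulated genes, MHC class II and chaperones held only higher ones. Of 29 interferon-stimulated genes 2 were called higher and none lower (6.90%), beside 9.66% of all genes tested that were called, with a median of -0.20. Isg15, a ubiquitin-like modifier, was at 144, 209 and 142 in the lung and at 15.2, 46.2 and 42.3 in the spleen (2.21, SE 0.32, adjusted p = 5.20e-06). Ifitm2, the other, lost its call without lung replicate 3 (adjusted p = 0.0501). In MHC class I presentation, 1 of 10 genes was called higher and 2 lower (30% called), with a median of -0.33. Calr, the chaperone calreticulin, was at 92.6, 120 and 166 against 45.7, 59.6 and 37.6 (1.31, SE 0.28, adjusted p = 0.00146) and was not called at equal depth (adjusted p = 0.130). Psmb8, an immunoproteasome subunit, was lower (-0.69, adjusted p = 0.0379), a call lost without lung replicate 2 or 3 or spleen replicate 2 or 4 (adjusted p from 0.102 to 0.146). At equal depth its difference was -0.39 (adjusted p = 0.575). H2-D1, a class I heavy chain with close relatives that can share reads, was lower too (-0.54, adjusted p = 0.0383), a call lost without lung replicate 1 or 3 or spleen replicate 2 or 4 (adjusted p from 0.0543 to 0.299). Its levels overlapped, at 10301, 13520 and 8076 in the lung and 12616, 13791 and 20019 in the spleen. Neither of these 2 lower calls held at equal depth, with the 6 libraries alone, with a replicate block or with neither trend nor robust prior. In MHC class II, 2 of 9 genes were called higher (22.2%), with a median of 1.14. Cd74, the invariant chain, was at 367, 347 and 563 against 107, 159 and 150 (1.57, SE 0.29, adjusted p = 0.000200). H2-Aa, the other, lost its call without lung replicate 3 (adjusted p = 0.176) or spleen replicate 2 (adjusted p = 0.0599). Of 10 heat shock chaperones 5 were called higher and none lower, with a median of 1.01 (3 with neither trend nor robust prior). Dnaja1, a cochaperone of HSP70, was at 347, 538 and 396 against 90.9, 168 and 174 (1.56, SE 0.25, adjusted p = 3.70e-05). Hspa1a, the stress-inducible HSP70, was at 23.6, 10.7 and 55.3 against 0, 5.29 and 7.10 and was not called (adjusted p = 0.0847). Of 11 glucocorticoid response genes 2 were called higher (Per1 and Cxcr4) and 2 lower (Sgk1 and Txnip), 36.4% in all, with a median of -0.13. Per1, a clock gene that glucocorticoids induce, was at 65.0, 110 and 205 against 7.62, 5.96 and 0 (4.08, SE 0.45, adjusted p = 7.62e-08), while Sgk1, another glucocorticoid target, was lower as given above. Txnip, an inhibitor of thioredoxin, was at 1176, 1252 and 1276 against 1425, 1991 and 2304 (-0.60, adjusted p = 0.0393), a call lost without any 1 library other than spleen replicate 1 (adjusted p from 0.0884 to 0.212).

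Transcripts encoded by mitochondrial DNA were higher in the lung. Of the 13 mitochondrially encoded genes 11 were called higher, with a median of 1.90, and their summed level was 4271 to 6463 in the lung libraries and 892 to 1778 in the spleen libraries. The cytochrome b gene mt-Cytb was at 674, 664 and 900 in the lung and at 68.6, 182 and 174 in the spleen (2.47, SE 0.30, adjusted p = 7.89e-07). Of 46 nuclear respiratory chain genes none was called, with a median of 0.25, and of 44 ribosomal protein genes 1 was (Rps4x), with a median of 0.42. The call of Rps4x was lost at equal depth (adjusted p = 0.155). The long noncoding RNA Neat1, which builds nuclear paraspeckles, was at 787, 897 and 714 against 473, 331 and 240 (1.24, SE 0.26, adjusted p = 0.00109). The part of the mitochondrial share in the other differences was not tested.

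**Figure D4:**
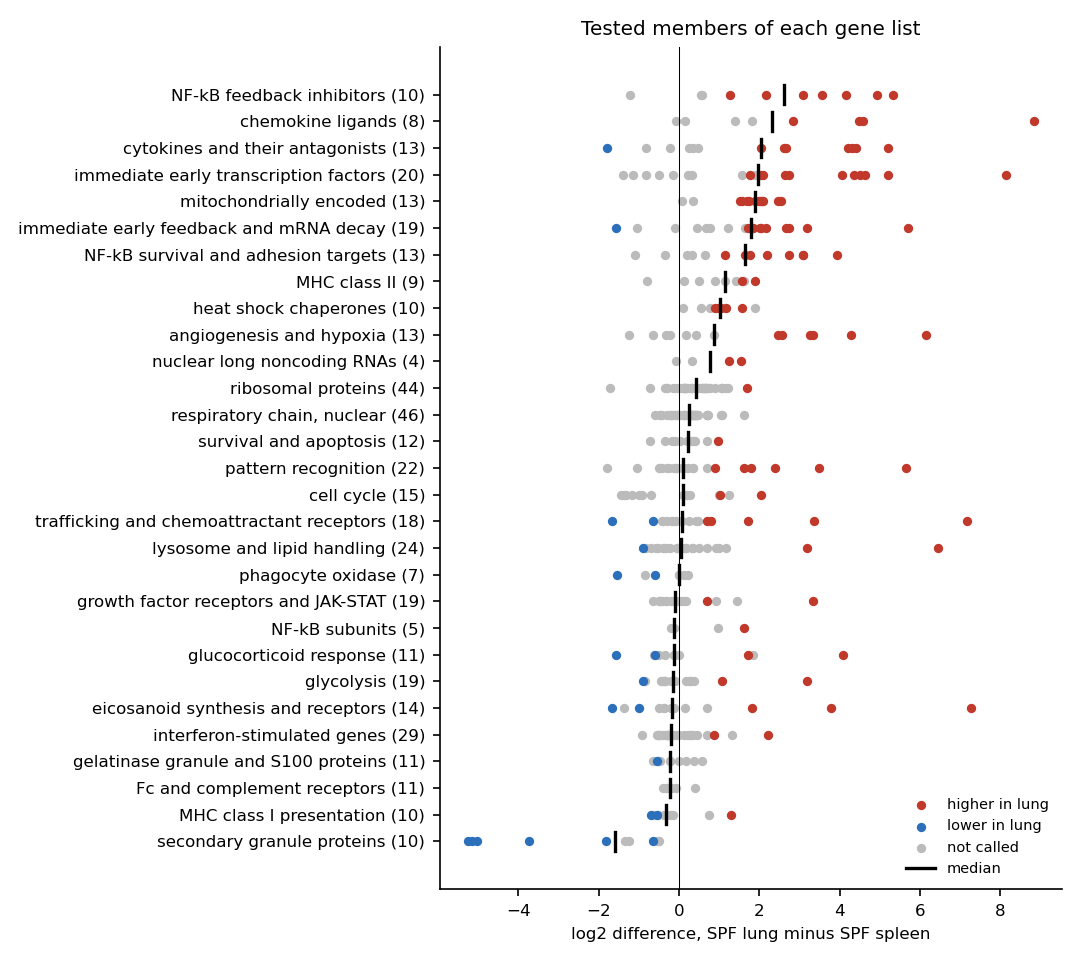
Each point is a tested member of the list named on the left, with the number tested in parentheses, placed at its log2 difference of SPF lung minus SPF spleen. Red points were called higher in lung, blue lower and grey neither; black bars are list medians, from 2.62 for NF-kB feedback inhibitors to -1.59 for secondary granule proteins.

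The same difference between lung and spleen was measured in GF mice. The 2 contrasts had no library in common, but both tests used the same estimate of the spread. In GF mice 844 genes were called (10.2%), 666 higher (8.03%) and 178 lower (2.14%). The genes called in the same direction in both numbered 504, which is 62.8% of the SPF calls and 59.7% of the GF calls, and none was called in opposite directions. Of the 802 SPF calls 95.8% had the same sign in GF mice, beside 65.6% of all genes tested. Cxcl2 differed by 8.83 in SPF and by 8.03 in GF mice, Tnfaip3 by 5.32 and 6.04, and Ltf by -5.25 and -5.39.

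A test of the difference between the SPF and the GF contrast called 1 gene (0.012%), and 561 genes had an unadjusted p under 0.05. Lmnb1, which encodes lamin B1 of the nuclear envelope, was at 349, 529 and 564 in SPF lung and at 38.1, 47.7 and 70.5 in SPF spleen, a difference of 3.13 (SE 0.27, adjusted p = 5.13e-10). In GF mice it was at 325, 283 and 328 in the lung (replicates 2, 3 and 4) and at 132, 175 and 168 in the spleen (replicates 1, 3 and 4), a difference of 0.96 (adjusted p = 0.0164). The SPF contrast exceeded the GF contrast by 2.17 (SE 0.38, adjusted p = 0.0235). Slc16a3, Il1r2 and Csf1, which did not pass at adjusted p = 0.0517, had contrasts larger in SPF mice by 1.64, 1.78 and 1.70. They were picked after their values were seen.

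**Figure D5:**
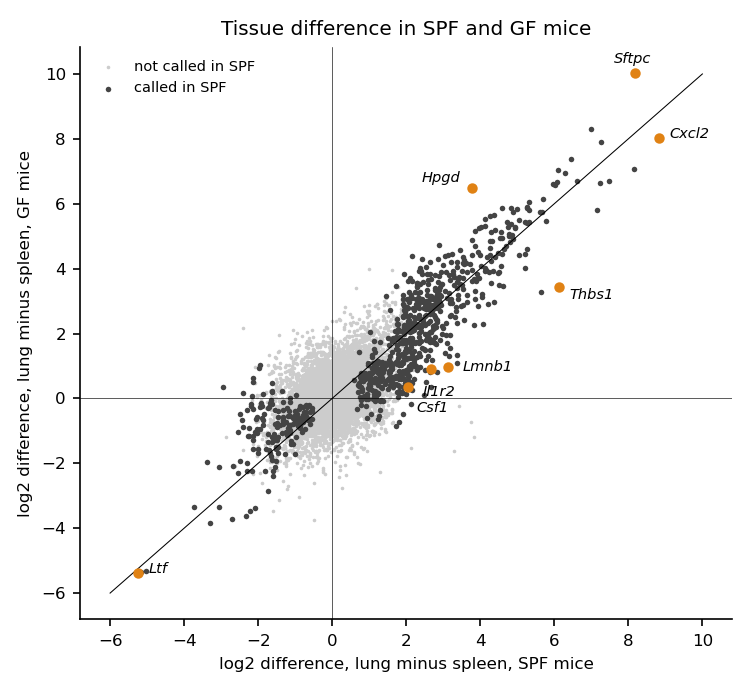
Each point is 1 of the 8299 genes tested, with the log2 difference of lung minus spleen in SPF mice on the horizontal axis and in GF mice on the vertical axis; genes called in SPF mice are dark and the line marks equal differences. The named genes are orange: Cxcl2, Sftpc and Ltf lie far from 0 in both, and Lmnb1 lies below the line, at 3.13 against 0.96.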

How the data were processed

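The submitters' processing notes name CASAVA, RSEM 1.3.1, limma and the mouse assembly mm10. Their order, the annotation, the filter and the scaling are not given in the sources used here, nor is strand-aware counting. The deposited table gives a signal for 10296 genes in each of 16 libraries. Its values have the form of an expected count plus 0.5 reads, scaled by library size. A read is thus worth 2 times the smallest value of a column, and reads were recovered by inversion. They were whole, to a tolerance of 0.05, for 91.4% to 98.7% of the values below 10 reads.

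The test covered the 8299 genes that reached 10 in 2 or more libraries, and 1997 were left out. The model, in limma 3.58.1 (R 4.3.3), had 6 group means over all 16 libraries on log2(value + 1), so blood and GF libraries shared in the estimate of the spread. The prior was trended and robust. Tests were two-sided, with p-values adjusted by Benjamini and Hochberg's method over every gene in the test. The fit was tested on simulated data. Symbols and coordinates came from GENCODE M21 (10275 identifiers matched). Of 4 symbols on 2 lines, the identifier with that GENCODE symbol was used; this was decided after the results had been seen and removed Itgam from the genes called.

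Members and lists were chosen with earlier results of these data known. Genes to be named were a set of neutrophil genes, up to 4 called members of smallest p per list, and genes called for the SPF and GF difference. The 15 largest differences each way were added. These had a mean of at least 30, at least 5 reads in every library of the higher group and no overlap. Some genes that met this rule were left out above for length. Among the 15 highest they included Scgb1a1 (7.48), Gpx3 (7.24), Sftpa1 (6.99), Inmt (6.61), Cd36 (6.45), Sparc (6.28), Cav1 (6.10) and Pltp (6.06). Among the 15 lowest they included Cldn15 (-2.03), Tmem229b (-2.00) and Susd3 (-1.85). Members that complete a count of 5 or fewer, members not called, and genes tied to a motif are named beyond that rule. Labels do not say that a replicate number marks 1 mouse. Alternatives were a pseudocount of 0.1 or 5, the offset subtracted, no filter or a limit of 100, TMM, median-ratio and quantile rescaling, array weights, no trended or robust prior, a replicate block, equal depth (104211 reads), the 6 libraries alone, and each library left out. Genes with near-identical copies, overlapping genes and antisense genes are uncertain.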

Additional observations from a re-analysis of the deposited data

Results flagged for a closer look

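The lung minus spleen difference of Lmnb1 was larger in SPF than in GF mice by 2.17 on the log2 scale, tested as the difference between the contrasts. It was the 1 gene of 8299 that passed. The SPF spleen libraries, at 38.1, 47.7 and 70.5, lay below the GF spleen libraries, at 132, 175 and 168, and the SPF lung libraries, at 349, 529 and 564, lay above the GF lung libraries, at 325, 283 and 328. Under the alternatives the value ran from 2.0 to 2.40 and passed in 16 of 24, with adjusted p from 0.00225 to 0.285. It did not pass with the offset subtracted (adjusted p = 0.135), with neither trend nor robust prior (0.285), or without lung SPF replicate 2 (0.167) or 3 (0.209), spleen SPF replicate 2 (0.148), lung GF replicate 3 (0.155) or spleen GF replicate 3 (0.119) or 4 (0.113).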

How the results depend on the processing

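The count of 802 genes called between SPF lung and SPF spleen fell to 419 with a limit of 100 (2061 genes tested) and to 434 at equal depth. It ran from 540 (without lung SPF replicate 3) to 987 (without spleen SPF replicate 1, the shallowest library) when 1 library was left out, and from 624 to 1143 in the other settings. At equal depth 402 of the 802 genes were still called. In GF mice the count of 844 fell to 365 and 489 in the same 2 settings, and ran from 560 (without lung GF replicate 4) to 756 when 1 library was left out. The count of 1 for the difference between the contrasts became 4 with TMM rescaling, median-ratio rescaling, no filter, a limit of 100 or a pseudocount of 5, 3 with quantile rescaling or at equal depth, 23 with array weights, 6 with a replicate block, and 0 with the offset subtracted or with neither trend nor robust prior (511 and 584 genes at an unadjusted p under 0.05 in limma); leaving out 1 library gave 0 to 48, the highest without spleen SPF replicate 1, and where it gave 0, 465 to 623 genes had an unadjusted p under 0.05.

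With the replicate block (4 residual degrees of freedom) 624 genes were called, 502 higher and 122 lower. Lung and spleen SPF share only the numbers 1 and 2, and the deviations of same-numbered libraries correlated at -0.06 and -0.07, which leaves unknown whether a number marks 1 mouse. No named gene that was called changed sign under any alternative run. Of the 119 named genes with a call, 80 kept it in each alternative that tested them, 6 of which were not tested at the limit of 100; at equal depth 24 lost it. Count tests in edgeR and DESeq2 were not run, because the recovered reads were not whole in enough libraries. Depth limits the spleen libraries most: a difference in a gene with few reads there may not have been detectable.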
